A study of Arabidopsis thaliana with 64 samples.

Results

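In Arabidopsis leaves of the gain-of-function line bes1-D, 57 genes of the chromosome 1 interval from AT1G09000 to AT1G32000, which holds BES1 itself, differed from WT in the same direction with and without stress. They were chosen by their values: each had at least 1 RPM in 2 or more libraries, and its mean log2(RPM + 0.5) in bes1-D differed from that in WT by at least 1, in the same direction, in control, dehydrated and carbon-starved leaves alike. RPM is the deposited read count scaled to library size, and a difference of 1 on this scale stands for a factor of 2 in well-expressed genes and understates the change of low ones. Of 1778 genes of the interval with enough reads, 61 met these conditions, and 4 of them (AT1G21110, AT1G21120, AT1G21400 and AT1G28480) are left out by name. The other genes left out by name are BES1 (AT1G19350), AT1G12610, AT1G21100, AT1G16400, AT1G16410 and AT1G10070. The 57 genes are called raised (22, higher in bes1-D) or lowered (35, lower in bes1-D), and they are compared with all 19824 genes that had enough reads, of 28775 listed. Because bes1-D and WT values chose them, those values are given as a description, and tests compare only the 3 other mutants. The spread in these tests was estimated over all 40 libraries, those of bes1-D and WT included.

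The series compared leaf transcriptomes of brassinosteroid-related mutants under water and carbon shortage. Leaves came from plants 4 weeks old, grown in days of 16 h light, that were left as controls, dehydrated over 4 h, or put through fixed-carbon starvation lasting 5 days. The lines used here are bes1-D, bri1-301 (a weak allele of the brassinosteroid receptor gene BRI1), atg7-2 (a mutant of the autophagy gene ATG7), DSK2 RNAi (a knockdown of the ubiquitin receptor genes DSK2A and DSK2B) and WT. Each line had 3 control, 3 dehydration and 2 starvation libraries, 40 in all. The labels do not state whether the replicates of a group are separate plants, and p-values therefore describe the spread of these libraries alone, which may be technical. The labels give no accession of origin for any line and describe 1 bes1-D line only. A difference that the bes1-D allele brings about and one that other DNA of the bes1-D line near BES1 brings about cannot be told apart in these data.

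Brassinosteroids are growth-promoting steroid hormones. The receptor kinase BRI1 starts a cascade that leaves the transcription factor BES1 unphosphorylated, stable and in the nucleus, and the bes1-D allele makes a BES1 protein that stays in this active state. BES1 binds short DNA elements, the BRRE and the E-box, and is known to repress genes of brassinosteroid synthesis and to induce genes of cell expansion.

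Libraries held 26634819 to 30375860 reads, so a count of 3 reads corresponded to 0.101 to 0.114 RPM, a floor that covers counting error only. In whole leaves, fewer cells of a type and less RNA per cell cannot be told apart. Summed leaf photosynthesis markers (8 genes) lay between 950 and 44293 RPM, whereas root markers (3 genes) reached at most 0.681 RPM and seed storage markers (2 genes) at most 0.137 RPM. Floral organ markers (7 genes) summed to 1.17 to 39.6 RPM and guard cell markers (4 genes) to 5.77 to 67.0 RPM. Xylem markers (4 genes) summed to 0.0682 to 77.4 RPM. The floral and guard cell sums of bes1-D lay below those of WT without overlap in each treatment, while the xylem sums overlapped. In control leaves guard cell sums were 25.6 to 38.3 RPM in bes1-D and 41.0 to 55.2 RPM in WT. Floral sums were 1.45 to 4.14 RPM in bes1-D and 5.49 to 8.67 RPM in WT control leaves. The part of these markers in the results was not tested. BES1 itself had 507, 425 and 340 RPM in bes1-D control leaves, against 326, 261 and 277 RPM in WT. DSK2A lay between 6.06 and 10.2 RPM in DSK2 RNAi, against 47.3 to 88.9 RPM in WT. DSK2B had 14.3 to 18.5 RPM in unstarved DSK2 RNAi, against 122 to 165 RPM in WT, but 124.5 and 186 RPM in starved DSK2 RNAi, against 210 and 220 RPM in WT. ATG7 lay between 14.2 and 81.4 RPM in atg7-2 (WT 9.87 to 52.7) and BRI1 between 30.0 and 196 RPM in bri1-301 (WT 21.1 to 124), which checks neither allele. The 10 genes of brassinosteroid synthesis summed to 328 to 416 RPM in bes1-D control leaves, against 691 to 728 RPM in WT. The third dehydration libraries of bes1-D and WT stood apart in their treatment by the slope of expression on transcript length. Without both, the same conditions gave 55 genes, 53 of them among the 57. Control slopes were 0.160, 0.150 and -0.115 in bes1-D, against 0.206, 0.447 and 0.236 in WT. Starvation slopes were -0.203 and -0.626 in bes1-D, against -0.179 and 0.000938 in WT. In both treatments all bes1-D slopes lay below those of every other line. Median transcript length was 1320 bases for raised and 1645 for lowered genes, beside 1713 for all genes. The bearing of the slopes on the differences was not tested.

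AT1G27570 and AT1G23960 had the largest smallest-of-3 difference among raised and among lowered genes. Their upstream sequences are given from the reference assembly, since these genes were on in one line and nearly off in the other. The DNA of the bes1-D line was not read and may differ, which also limits the motif counts below. The upstream sequences of 4 further lowered genes show where a BRRE was found. Each is the 250 bases before the annotated start in RefSeq's TAIR10.1 assembly, written 5′ to 3′ in the gene's direction, with matches to CGTGTG or CGTGCG (BRRE), CACGTG (G-box) and CATGTG (E-box) on either strand in capitals. They lie at chr1:9575288-9575537 (plus strand, AT1G27570), chr1:8480357-8480606 (minus strand, AT1G23960, where AT1G23965 is also annotated), chr1:3066424-3066673 (plus strand, AT1G09500), chr1:6802907-6803156 (minus strand, AT1G19660), chr1:10076458-10076707 (minus strand, ARAB-1) and chr1:10581485-10581734 (plus strand, NUDX25).
AT1G27570: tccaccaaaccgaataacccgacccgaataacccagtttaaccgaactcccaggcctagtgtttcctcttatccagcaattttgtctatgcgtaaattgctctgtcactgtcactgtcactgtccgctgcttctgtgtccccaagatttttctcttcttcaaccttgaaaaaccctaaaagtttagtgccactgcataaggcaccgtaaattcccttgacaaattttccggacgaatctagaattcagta
AT1G23960: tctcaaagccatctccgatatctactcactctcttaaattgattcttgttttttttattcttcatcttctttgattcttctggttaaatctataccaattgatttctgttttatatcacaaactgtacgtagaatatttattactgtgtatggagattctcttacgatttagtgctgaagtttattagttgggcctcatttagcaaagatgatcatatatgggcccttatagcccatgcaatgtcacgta
AT1G09500: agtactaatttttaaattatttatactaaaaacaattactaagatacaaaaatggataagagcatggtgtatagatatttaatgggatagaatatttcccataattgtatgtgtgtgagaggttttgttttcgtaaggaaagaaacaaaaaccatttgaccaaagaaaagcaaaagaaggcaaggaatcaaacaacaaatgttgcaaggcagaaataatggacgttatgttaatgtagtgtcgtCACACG
AT1G19660: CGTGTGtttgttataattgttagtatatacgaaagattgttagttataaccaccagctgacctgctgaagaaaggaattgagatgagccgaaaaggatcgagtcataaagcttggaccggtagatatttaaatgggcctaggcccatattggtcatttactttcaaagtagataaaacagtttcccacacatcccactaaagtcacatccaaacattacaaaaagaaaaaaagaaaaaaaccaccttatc
ARAB-1: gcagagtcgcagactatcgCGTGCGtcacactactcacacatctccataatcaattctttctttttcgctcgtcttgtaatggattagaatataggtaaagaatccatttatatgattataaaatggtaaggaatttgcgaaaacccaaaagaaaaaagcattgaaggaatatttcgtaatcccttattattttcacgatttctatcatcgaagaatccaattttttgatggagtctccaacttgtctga
NUDX25: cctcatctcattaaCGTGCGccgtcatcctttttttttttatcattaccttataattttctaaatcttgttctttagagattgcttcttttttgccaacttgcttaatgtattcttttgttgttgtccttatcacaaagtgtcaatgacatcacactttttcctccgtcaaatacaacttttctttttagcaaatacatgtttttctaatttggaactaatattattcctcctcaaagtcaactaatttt

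A BRRE was present in the 250 bases before 4 of the 57 genes (7.02%), against 7.00% of 19751 genes with enough reads and a position. These 4 were the lowered genes AT1G09500, AT1G19660, ARAB-1 and NUDX25 (11.4% of 35 lowered genes), and none of the 22 raised genes held one. Numbers this small do not set the directions apart, and the split was not tested. The G-box letters were found before 1 of the 57 genes (1.75%), against 7.60% of all, and the E-box letters before 9 (15.8%), against 11.3%. Overlapping matches counted for each motif. The regions before AT1G27570 and AT1G23960 held none of these letters.

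The genes were unevenly placed around BES1, which lies at chr1:6688463-6691216 on the plus strand of TAIR10.1. Of the 57 genes 9 stood before BES1, among 887 genes of the interval with enough reads, and 48 after it, among 890. The nearest before BES1 was MYB47, 238 kb away, and the nearest after it was AT1G19530, at 75.3 kb, while the farthest were AT1G09500, 3.62 Mb before, and AT1G31950, 4.79 Mb after. In all, 1.89% of the 19824 genes met the conditions, 0.822% higher and 1.07% lower in bes1-D. In the interval the share was 3.43% (1.41% higher and 2.02% lower), and outside it 1.74% (0.765% and 0.975%). At a limit of 2 in place of 1 it was 1.01% in the interval (18 genes) and 0.155% outside (28 genes).

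When all genes with enough reads were cut into bins of 100 in chromosome order, higher counts began at the bin that follows BES1. The 10 bins from AT1G19400 to AT1G33960 held 3 to 8 such genes each, 57 of 1000 genes (5.7%), of which 48 are among the 57 described here and the others lie past the interval or are left out by name. The 9 bins before them, from AT1G08930 to AT1G19397, held 0 to 2 each, 9 of 900 (1%). Everywhere outside the 10 bins the share was 1.69% (318 of 18790), with a median of 1 gene a bin. Single bins elsewhere reached as many: 4 of the 189 other bins held at least 6, and 1 of them, farther along the same chromosome, held 9. These bins were drawn after the values had been seen.

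**Figure D1:**
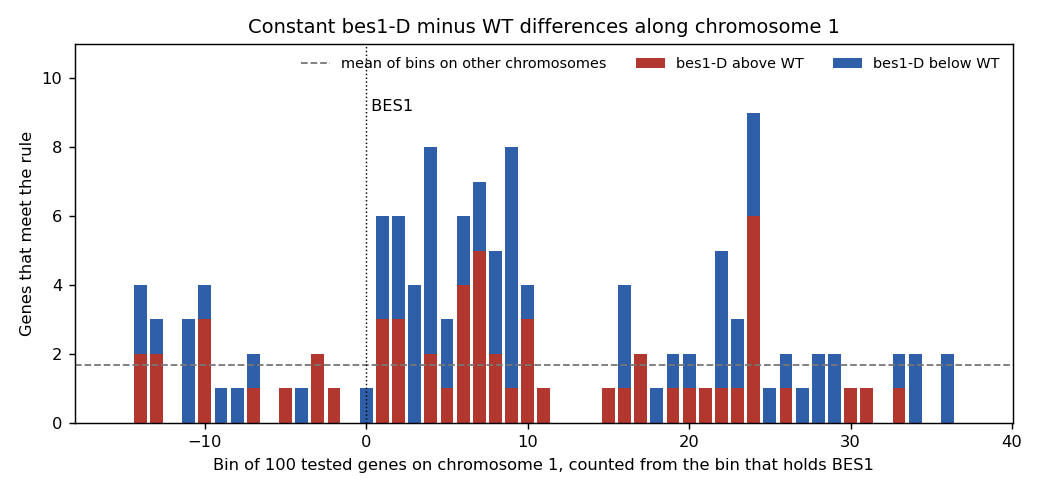
Genes that met the conditions per bin of 100 tested genes along chromosome 1 (x axis, bins counted from the one holding BES1, dotted line), split into higher (red) and lower (blue) in bes1-D than in WT. Bins 1 to 10 after BES1 hold 3 to 8 genes each, the 9 bins up to and including that of BES1 hold 0 to 2, and the dashed line is the mean of the bins on other chromosomes.

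The same conditions were applied to the other mutants. For bri1-301 minus WT 0.281% of the interval (5 genes) and 0.305% outside met them, for atg7-2 minus WT 1.01% (18 genes) and 0.787%, and for DSK2 RNAi minus WT none of 1778 and 0.0831% (15 genes). All 4 sets share the WT libraries. WT was near the other mutants for most of the 57 genes: it lay within 1 log2 unit of the mean of bri1-301, atg7-2 and DSK2 RNAi for 57 genes in control, for 56 in dehydration and for 47 in starvation. Against that mean of 3 mutants, bes1-D differed in the direction of the WT comparison for 57, 57 and 55 genes. So did 88.8%, 73.6% and 79.7% of all genes, and 99.7%, 99.7% and 99% of the 314 genes outside the interval that met the conditions. Since bes1-D values chose the 57 genes, this common direction is no separate evidence about them. The difference reached at least 1 in all 3 treatments for 47 of the 57 (82.5%). That share was 73.9% among the 314 genes and 5.03% among all genes. WT lay within 1 unit of that mean for 99.7%, 98.1% and 84.7% of all genes in control, dehydration and starvation, so its nearness is no mark of the 57.

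Per treatment, the bes1-D libraries lay outside the range of all libraries of the other 4 lines for 49 of the 57 genes in control, for 52 in dehydration and for 51 in starvation, and the shares over all genes were 18.7%, 12.7% and 28%. Set against WT alone, they lay outside its range for 56, 56 and 57 genes, beside 30.7%, 23.1% and 60.9% of all genes in the same order of treatments, and for 34 with treatments pooled, beside 1.6%. With the 3 treatments pooled, all 8 bes1-D libraries lay outside the range of the other 32 for 23 of the 57 genes, against 0.686% of all genes. The authors' deposited table marks all 57 genes as changed between bes1-D and WT, a mark that 22.6% of 19510 genes with an entry carry, and both comparisons use the libraries that chose the genes.

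**Figure D2:**
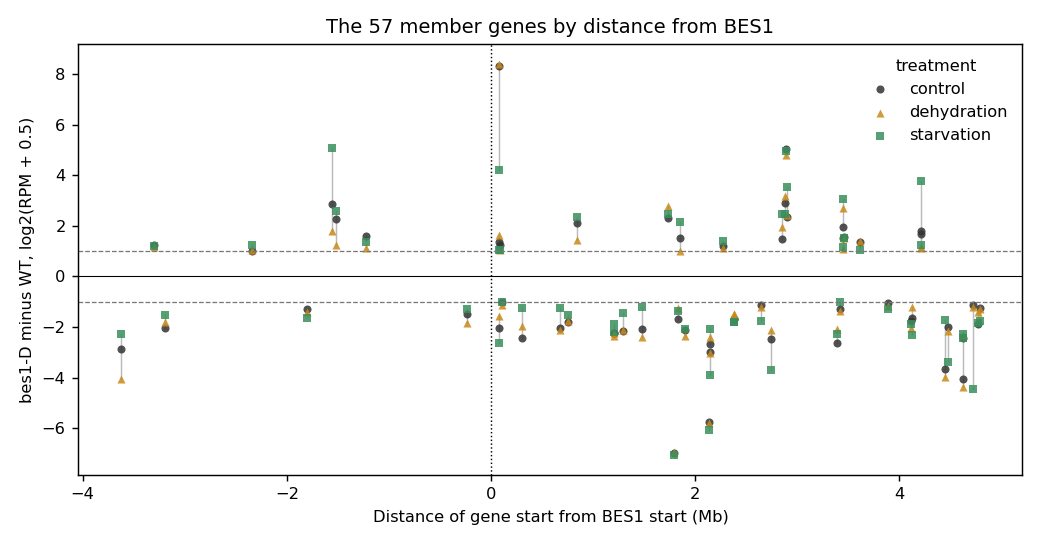
bes1-D minus WT in log2(RPM + 0.5) for each of the 57 genes (y axis) in control, dehydration and starvation, joined by a grey line, by distance of the gene start from that of BES1 in Mb (x axis). Dashed lines mark the limit of 1, and the symbols of AT1G23960 near -7 and of AT1G27570 near 5 almost coincide.

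The smallest of a gene's 3 differences had a median size of 1.47 over the 57 genes, and 16 of them (28.1%) reached 2. Among the 314 genes outside the interval that met the conditions the median was 1.28, and 8.92% reached 2. The spread between a gene's 3 differences was 0.54 in the median for the 57 genes and 0.68 for the 314, and it was under 1 for 40 of the 57. PUT1 (-1.14, -1.21 and -4.46 in control, dehydration and starvation) and PCR1 (2.88, 1.79 and 5.09) were among those with a wider spread. Just inside the limit stood RBL6 (smallest difference 1.01), AT1G24140 (1.02) and AT1G19660 (1.02), and just outside it NAS3 (0.99), PUT2 (0.99) and CAB3 (0.98).

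Several genes lay under 1 RPM in every bes1-D library and not in the other lines, or the reverse. Under 1 RPM in all 8 bes1-D libraries and at 1 RPM or more in all 32 others were AGL87, AT1G23960, AT1G25175, LpxC5 (AT1G25210) and AT1G25211, and the pattern held for 6 of the interval's 1778 genes and 5 of the 18046 outside it. The reverse held for AT1G27570 and AT1G27580, 2 genes of the interval, and for 2 genes outside it.

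AT1G23960, which encodes a protein of unknown function with a DUF626 domain (chr1:8478391-8480356), had 0.0342, 0 and 0 RPM in bes1-D control leaves, 0.0345, 0.0349 and 0.0345 RPM in dehydrated and 0.405 and 0.307 RPM in starved leaves. WT had 73.8, 46.8 and 74.4 RPM in control, 59.9, 60.0 and 80.5 RPM in dehydrated and 118 and 112 RPM in starved leaves. The 6 unstarved bes1-D libraries thus held at most 1 read each, and no bes1-D library came near one of WT. The differences were -6.97, -6.96 and -7.07 in control, dehydration and starvation, and the other 3 mutants lay between 46.0 and 123 RPM. Differences of this kind depend on the 0.5 that is added, since bes1-D was at or near 0.

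The raised counterpart was AT1G27570, annotated as a member of the phosphatidylinositol 3- and 4-kinase family (chr1:9575538-9582376). It had 17.8, 17.7 and 14.2 RPM in control, 12.9, 11.9 and 18.1 RPM in dehydrated and 14.1 and 17.4 RPM in starved bes1-D leaves. Across the 8 WT libraries it lay between 0 and 0.0345 RPM, which is at most 1 read, and across the 24 libraries of the other mutants between 0 and 0.136 RPM. Every bes1-D library was far above every other library, in each treatment (differences 5.05, 4.80 and 4.97). Its neighbours AT1G27540 and AT1G27580, a pair of F-box proteins with a DUF295 domain, were raised too. F-box proteins choose the targets of a ubiquitin ligase. AT1G27580 lay between 1.82 and 6.88 RPM in bes1-D, against 0 to 0.173 RPM in WT and 0 to 0.204 RPM in the other mutants. AT1G27540 had 48.9, 63.2 and 38.0 RPM in control bes1-D leaves, against 6.04, 5.40 and 7.06 RPM in WT, and 38.0 to 70.8 RPM over all bes1-D libraries, against 4.47 to 10.3 RPM over all WT libraries. Of the stretches of 50 bases (the read length) in the transcript of AT1G27580, 69.2% were also found in AT1G27540, so how reads were divided between both genes is uncertain.

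AT1G19550, of the glutathione S-transferase family and 79.0 kb after BES1 (chr1:6767451-6768158), had the largest difference of any of the 57 genes in 2 of the 3 treatments. It had 225, 300 and 250 RPM in control, 369, 309 and 449 RPM in dehydrated and 51.6 and 55.6 RPM in starved bes1-D leaves. WT had 0.309, 0.242 and 0.379 RPM in control, 0.791, 0.409 and 0.581 RPM in dehydration and 2.56 and 2.21 RPM in starvation. No library of bes1-D overlapped any other, and the differences were 8.31, 8.42 and 4.23. The nearby relative DHAR1 (AT1G19570), a dehydroascorbate reductase that recycles ascorbate, shares 20.1% of the 50-base stretches of AT1G19550. DHAR1 was at 1234 ± 172 RPM in bes1-D and 1200 ± 368 RPM in WT control leaves (SD, n = 3 each). AT1G19540, an NmrA-like family gene that overlaps AT1G19550 on the other strand, was lowered (differences -2.04, -1.57 and -2.62). AT1G19540 had 1.54, 2.63 and 1.11 RPM in control bes1-D leaves, so most reads of AT1G19550 were not also counted for AT1G19540. Strand use during counting was not given in the sources used here, so how reads in the overlap were assigned remains uncertain. Another annotated gene overlaps 17 of the 57 genes, and the same limit applies to each of these. AT1G19530, beside AT1G19540, was raised (1.36, 1.63 and 1.05), but its bes1-D libraries overlapped those of other mutants in control and dehydration.

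A block of 3 adjacent lowered genes, AT1G25175, LpxC5 and AT1G25211 (chr1:8826983-8837007), was under 1 RPM in every bes1-D library. LpxC enzymes deacetylate an early lipid A precursor in bacteria, AT1G25211 encodes an F-box protein, and AT1G25175 is a non-coding RNA gene. AT1G25175 had 0 RPM in all control and dehydrated bes1-D libraries and 0.236 and 0.307 RPM in starvation, against 22.3 to 55.0 RPM in WT. AT1G25211 had 0 RPM in control and dehydrated and 0.0337 and 0.0341 RPM in starved bes1-D leaves, against 3.28 to 7.69 RPM in WT. LpxC5 lay between 0.0342 and 0.675 RPM in bes1-D, against 2.97 to 4.34 RPM in WT. In all 3 the bes1-D libraries lay below every library of the other 4 lines. These genes belong to a region of near-identical copies: 98.1%, 78.8% and 87.3% of the 50-base stretches of AT1G25175, LpxC5 and AT1G25211 occur elsewhere in the genome. Their copies carried few reads in either line, LpxC3 for example averaging 0 RPM in bes1-D and 0.264 RPM in WT control leaves, so the values of the 3 genes rest on how the authors assigned such reads and are uncertain. Of the 57 genes 42 had no shared stretch, and 8 had more than 10% shared, namely these 3, AT1G19550, AT1G27540, AT1G27580, ARAB-1 (10.0%) and AT1G31258 (57.0%, with AT3G47965).

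**Figure D3:**
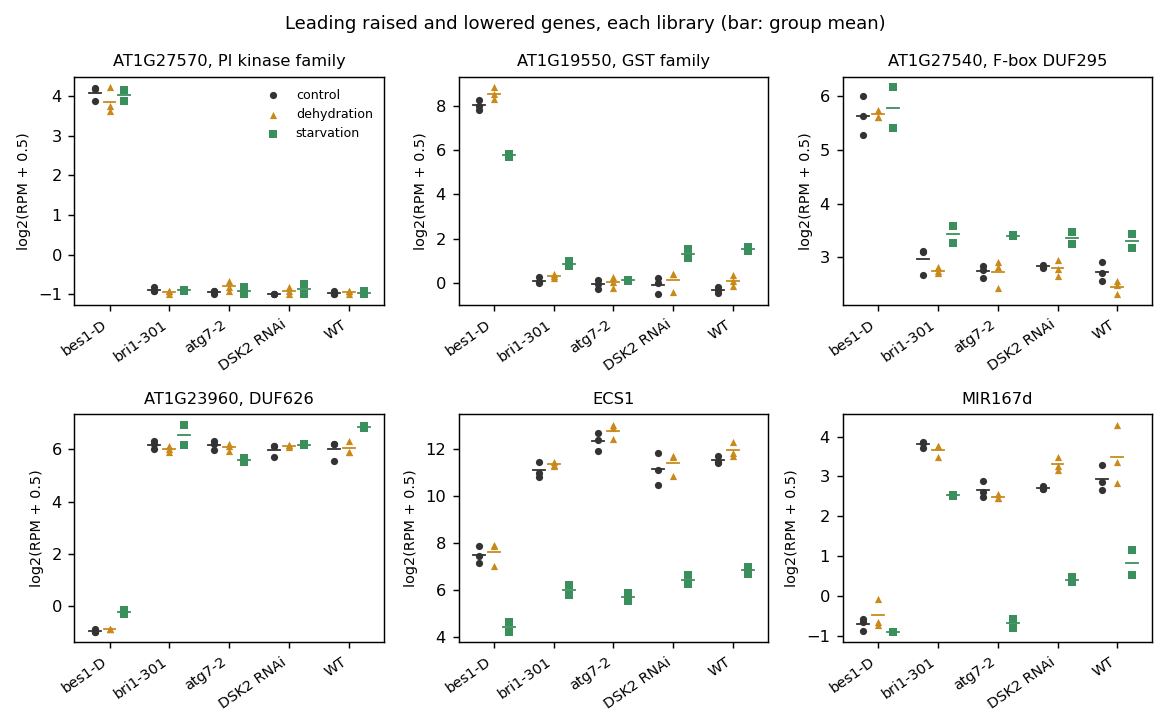
log2(RPM + 0.5) in each of the 40 libraries (points, with a bar at each group mean) for 3 raised and 3 lowered genes, by line (x axis) and treatment (symbol). In the panel of AT1G27570 bes1-D alone is above 3 and all other libraries are below 0, and in that of AT1G23960 the order is the reverse.

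All 4 glycosyltransferases among the 57 genes were lowered, as were 35 of the 57 in all. This group and those below are small and were formed after values were seen, so their direction is no result about a family. UGT85A2 and UGT85A5, adjacent genes of the family that attaches sugars to small molecules, stand 1.21 Mb after BES1. UGT85A2 had 15.4, 17.1 and 11.2 RPM in control, 12.2, 10.0 and 10.9 RPM in dehydrated and 38.4 and 21.8 RPM in starved bes1-D leaves, against 61.2, 89.5 and 61.1 RPM, 57.6, 61.0 and 58.1 RPM, and 131 and 136 RPM in WT. The highest bes1-D library was below the lowest WT library in all. UGT85A5 lay between 4.22 and 8.55 RPM in unstarved bes1-D leaves, against 18.4 to 47.3 RPM in WT. UGT74B1, which glucosylates thiohydroximates in glucosinolate synthesis, had 11.4, 21.3 and 9.15 RPM in control bes1-D leaves, against 36.0, 41.3 and 54.8 RPM in WT (difference -1.69). UGT78D1, which adds rhamnose to flavonols, had 15.8, 23.3 and 11.8 RPM in control bes1-D leaves, against 39.8, 47.0 and 75.5 RPM in WT (difference -1.64). Neither overlapped WT within any treatment. The 4 differences were between -2.24 and -1.64 in control leaves and between -2.37 and -1.23 in dehydrated leaves.

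Both Nudix hydrolases were lowered as well. NUDX15 and NUDX25 belong to a family that cleaves nucleoside diphosphate derivatives. NUDX15 had 20.9, 20.6 and 16.2 RPM in control bes1-D leaves, against 49.3, 39.7 and 52.8 RPM in WT (differences -1.28, -1.37 and -1.03 over the 3 treatments). NUDX25, close to the detection limit, had 0.445, 0.718 and 0.334 RPM in control bes1-D leaves, against 1.85, 1.07 and 1.79 RPM in WT. In dehydrated and starved leaves the bes1-D libraries of NUDX25 were not outside the range of the other lines. Starved bes1-D had 3.10 and 3.34 RPM, against 2.42 and 2.53 RPM in starved atg7-2. Other lowered enzymes were ARAB-1, a GDSL lipase (2.74, 3.42 and 1.89 RPM in control bes1-D leaves, against 17.9, 25.1 and 15.2 RPM in WT), ATSBT5.2, a subtilisin-like protease (1.30, 2.05 and 0.778 RPM, against 8.24, 7.76 and 12.3 RPM), and the NAD(P)-binding protein AT1G09500. The last had 0.684, 1.20 and 1.22 RPM in control bes1-D leaves, against 8.86, 11.2 and 12.4 RPM in WT, and its differences were -2.89, -4.05 and -2.29. AT1G31910, of the GHMP kinase family, AT1G31950, of the terpenoid cyclase family, and the HAD-like hydrolase AT1G14310 had differences of -1.88, -1.25 and -1.31 in control leaves.

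**Figure D4:**
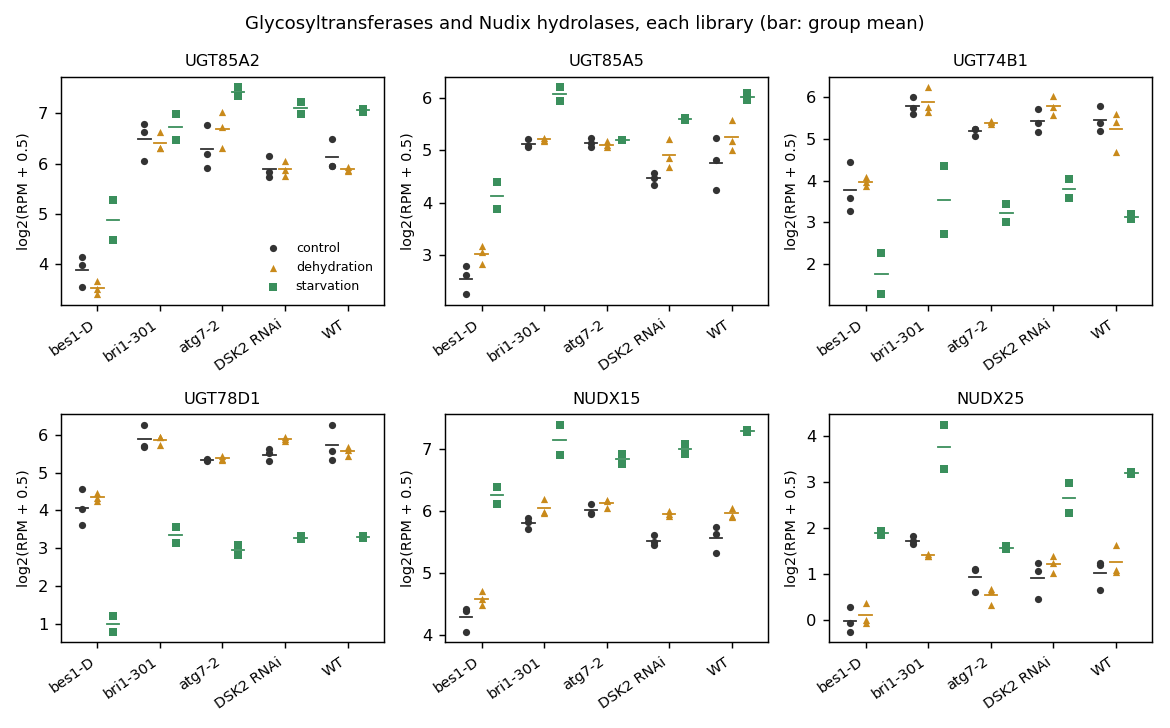
log2(RPM + 0.5) in each library (points, with a bar at each group mean) for 4 glycosyltransferases and 2 Nudix hydrolases, by line (x axis) and treatment (symbol). In every panel the bes1-D control libraries lie below those of the other lines.

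Among annotated regulators MIR167d had the largest lowered difference in control and dehydrated leaves (-3.64 and -3.98), and in starved leaves (-1.74) it was near NF-YA7 (-1.88). Its microRNA guides cleavage of mRNAs of the auxin response factors ARF6 and ARF8. The mature sequence, with the seed (bases 2 to 8) in capitals, is given from RefSeq's TAIR10.1 annotation (chr1:11137556-11137577, plus strand).
miR167d: uGAAGCUGccagcaugaucugg
The reads are of the precursor transcript in total RNA, not of the mature molecule. MIR167d had 0.171, 0.137 and 0.0371 RPM in control, 0.138, 0.105 and 0.448 RPM in dehydrated and 0.0337 and 0.0341 RPM in starved bes1-D leaves. WT had 9.24, 6.79 and 5.82 RPM, 6.67, 9.74 and 19.2 RPM, and 1.72 and 0.93 RPM in the same treatments. The lines did not overlap within a treatment, and several bes1-D libraries were under the floor of 3 reads. ARF6 and ARF8 are not among the 57 genes. ARF8 had 13.8 ± 5.21 RPM in bes1-D and 25.2 ± 2.55 RPM in WT control leaves (SD, n = 3 each), and 2.93 ± 0.576 RPM in bes1-D and 6.63 ± 0.373 RPM in WT starved leaves (SD, n = 2 each). ARF6 had 34.6 ± 12.7 RPM in bes1-D and 58.4 ± 7.51 RPM in WT control leaves, and 8.85 ± 5.47 RPM in bes1-D and 20.6 ± 2.94 RPM in WT starved leaves. In both treatments the bes1-D libraries of both genes lay below those of WT, and in dehydration they overlapped (28.2 ± 5.99 RPM in bes1-D and 42.1 ± 20.1 RPM in WT for ARF6).

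Transcription factor genes among the 57 were all lowered. MYB47, a MYB factor, lay between 1.61 and 2.29 RPM in bes1-D, against 4.57 to 10.5 RPM in WT. NF-YA7, a subunit of the CCAAT-binding NF-Y complex, had 4.55, 6.05 and 2.82 RPM in control bes1-D leaves, against 16.3, 12.4 and 19.6 RPM in WT, with differences of -1.77, -2.05 and -1.88. AGL87, of the MADS-box family, had 0.274, 0.205 and 0.148 RPM in control bes1-D leaves, against 3.57, 1.63 and 3.06 RPM in WT. In starved leaves AGL87 had 0.540 and 0.751 RPM in bes1-D, against 2.46 and 2.79 RPM in WT. The bHLH gene AT1G10585 lay between 3.18 and 20.6 RPM, against 23.9 to 51.1 RPM in WT. In MYB47, AGL87 and AT1G10585 the bes1-D and WT libraries did not overlap even with treatments pooled. The other mutants came closer: in starved leaves MYB47 had 2.29 and 1.98 RPM in bes1-D, against 0.376 to 5.54 RPM in the other mutants, and AT1G10585 had 20.6 and 10.4 RPM in bes1-D, against 9.29 to 40.7 RPM. SOFL1, a gene of a family that acts on cytokinin levels, and the non-coding AT1G26208 on the opposite strand were lowered alike (-1.69 and -1.70 in control leaves). AT1G26208 spans SOFL1 and their values ran closely parallel in every library (7.91 and 7.43 RPM in the first bes1-D control library), so reads of AT1G26208 and SOFL1 cannot be told apart.

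Genes with a role in defence or at the cell surface went both ways. PDF1.4, a plant defensin-like gene, was raised: it had 35.2, 60.6 and 89.7 RPM in control bes1-D leaves, against 18.4, 32.9 and 23.6 RPM in WT. The berberine-bridge-like oxidase genes AT1G30730 and AT1G30740, next to each other, were raised as well. AT1G30740 had 1.68, 1.37 and 1.52 RPM in control and 42.2 and 28.0 RPM in starved bes1-D leaves, against 0.137, 0.173 and 0.103 RPM and 2.16 and 1.93 RPM in WT. AT1G30730 had 37.1, 39.2 and 22.4 RPM in control bes1-D leaves, against 7.42, 12.8 and 6.95 RPM in WT. The matrixin-family protease gene AT1G24140 (63.2, 30.8 and 77.3 RPM, against 20.5, 15.3 and 19.7 RPM in WT) and the ankyrin-repeat gene AT1G10340 (55.4, 52.1 and 34.1 RPM, against 17.8, 25.2 and 16.3 RPM) followed the same direction. For AT1G10340 and AT1G30730 libraries of the other mutants overlapped those of bes1-D in each treatment, and for PDF1.4 and AT1G24140 they did so in control.

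ECS1, whose product is linked to the cell wall, had the highest RPM of the lowered genes in unstarved WT leaves. It had 140, 171 and 235 RPM in control, 129, 229 and 239 RPM in dehydrated and 17.9 and 23.7 RPM in starved bes1-D leaves. WT had 3346, 2814 and 2726 RPM, 5090, 3598 and 3333 RPM, and 125 and 102 RPM. Each bes1-D group was far below its WT group, with differences of -4.05, -4.36 and -2.42. TBL38, of a family of wall polysaccharide acetyltransferases, was raised: it had 134, 92.5 and 99.3 RPM in control and 229 and 243 RPM in starved bes1-D leaves, against 26.2, 25.8 and 30.4 RPM and 28.7 and 26.8 RPM in WT. Its neighbour AT1G29041 was raised by 1.10 to 1.54 log2 units. MDP40, a microtubule-associated protein known from hypocotyl elongation, was lowered (1.06, 1.64 and 0.815 RPM in control bes1-D leaves, against 7.07, 3.57 and 10.0 RPM in WT).

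Transport genes also split. PCR1, a membrane protein known for cadmium resistance, had 195, 423 and 207 RPM in control, 149, 346 and 252 RPM in dehydrated and 188 and 215 RPM in starved bes1-D leaves, against 51.8, 33.7 and 23.6 RPM, 99.9, 52.3 and 58.5 RPM, and 9.67 and 2.93 RPM in WT. The amino acid transporter gene AT1G25530 was raised by 1.13 to 1.42 log2 units. PUT1, a polyamine uptake transporter, was lowered. It had 4.24, 5.98 and 3.37 RPM in control and 1.72 and 1.40 RPM in starved bes1-D leaves, against 10.9, 6.61 and 15.2 RPM and 44.3 and 44.8 RPM in WT. The 2 starved bes1-D libraries were the lowest of the line and the 2 starved WT libraries the highest of theirs.

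In RNA and protein synthesis, the ribosomal protein L34 gene AT1G29070 was raised by nearly the same amount in each treatment (1.55, 1.51 and 1.51), with 405, 392 and 539 RPM in control bes1-D leaves, against 154, 166 and 131 RPM in WT. AT1G24240, of the ribosomal L19 family, was lowered (-2.12, -2.36 and -2.06). TRM9, named for a tRNA methyltransferase, was lowered (-2.42, -2.33 and -2.28), with 1.89 to 3.55 RPM over all bes1-D libraries, against 13.4 to 20.7 RPM in WT and 6.67 to 25.2 RPM in the other mutants. RBL6, a rhomboid-like protein, was raised by 1.01, 1.06 and 1.23.

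The remaining genes have an unknown or general function. AT1G23850 had 28.3, 49.7 and 27.9 RPM in control bes1-D leaves, against 5.77, 5.99 and 7.98 RPM in WT, and AT1G27150, a tetratricopeptide-repeat gene, 8.52, 9.23 and 4.56 RPM, against 44.1, 34.0 and 51.1 RPM. AT1G15010 was raised to 494, 392 and 559 RPM in control, against 102, 94.0 and 96.7 RPM in WT, and AT1G21520 to 240, 295 and 328 RPM, against 69.2, 39.9 and 105 RPM. AT1G27480, an alpha/beta-hydrolase, had 45.2, 40.2 and 31.5 RPM, against 16.8, 13.0 and 11.4 RPM. None of these 5 genes overlapped WT in control leaves. Raised by 1.03 to 1.61 log2 units were AT1G15900 and AT1G29465, whereas AT1G21050, AT1G21280, AT1G26930, AT1G19660 and the non-coding AT1G31258 were lowered. For AT1G21050 starved atg7-2 (0.919 and 1.03 RPM) lay below starved bes1-D (5.30 and 7.98 RPM). In all, 18 of the 57 genes stood next to another one in the order of genes with enough reads, in 8 runs (31.6%), and 7 of the runs went in 1 direction. Of the 314 genes outside the interval that met the conditions 18.2% stood in runs, 23 of 26 runs in 1 direction. The runs of AT1G26208 with SOFL1 and of AT1G25175, LpxC5 and AT1G25211 hold genes whose reads are uncertain as described above, so their common direction is not independent.

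How the genes answered stress was tested in the 3 mutants whose values had not chosen them, over all 19824 genes with limma. AT1G27570 and AT1G27580 had enough reads only through bes1-D. In the 3 mutants they stayed at or under 0.136 and 0.204 RPM, so these tests and those between mutants could hardly call them. The counts out of 57 include both. Starvation changed 41 of the 57 genes (71.9%) in the mean of bri1-301, atg7-2 and DSK2 RNAi, 18 higher and 23 lower, beside 77.2% of all genes (30.3% higher and 46.9% lower). The median change of the 57 genes was -0.10, beside -0.25 over all genes. Scaling by the median of ratios moved the median of all genes to 0.04 and gave 21 higher and 18 lower among the 57, and 8073 higher and 7739 lower in all, in place of 6016 and 9289. AT1G19530 rose most, by 6.03 (SE 0.38, adjusted p = 3.81e-15), to 808 and 379 RPM in starved bri1-301, 260 and 247 in starved atg7-2 and 447 and 567 in starved DSK2 RNAi, against 0.578 to 13.9 RPM over their unstarved libraries. AT1G09500 rose by 4.74, AT1G19540 by 3.27, AT1G30730 by 2.66 and AT1G30740 by 2.42. ECS1 fell by 5.48 (SE 0.19, adjusted p = 9.69e-22), PCR1 by 5.23, AT1G27480 by 4.39, AT1G29070 by 2.71 and UGT78D1 by 2.37. PCR1 fell to 0.878 and 0.722 RPM in starved bri1-301, 0.306 and 0.171 RPM in atg7-2 and 3.14 and 7.65 RPM in DSK2 RNAi, whereas starved bes1-D leaves held 188 and 215 RPM.

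Dehydration changed 10 of the 57 genes in the same lines, 8 higher and 2 lower, beside 12.1% of all genes (6.28% higher and 5.84% lower). AT1G09500 rose by 1.66 (SE 0.25, adjusted p = 7.07e-05), AT1G21520 by 0.95, AT1G10585 by 0.89, AT1G25530 by 0.86 and PCR1 by 0.79. AT1G24140 fell by 0.73 (SE 0.14, adjusted p = 0.000969) and AT1G27480 by 0.49. All adjusted p-values of these tests are from limma with Benjamini-Hochberg adjustment.

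**Figure D5:**
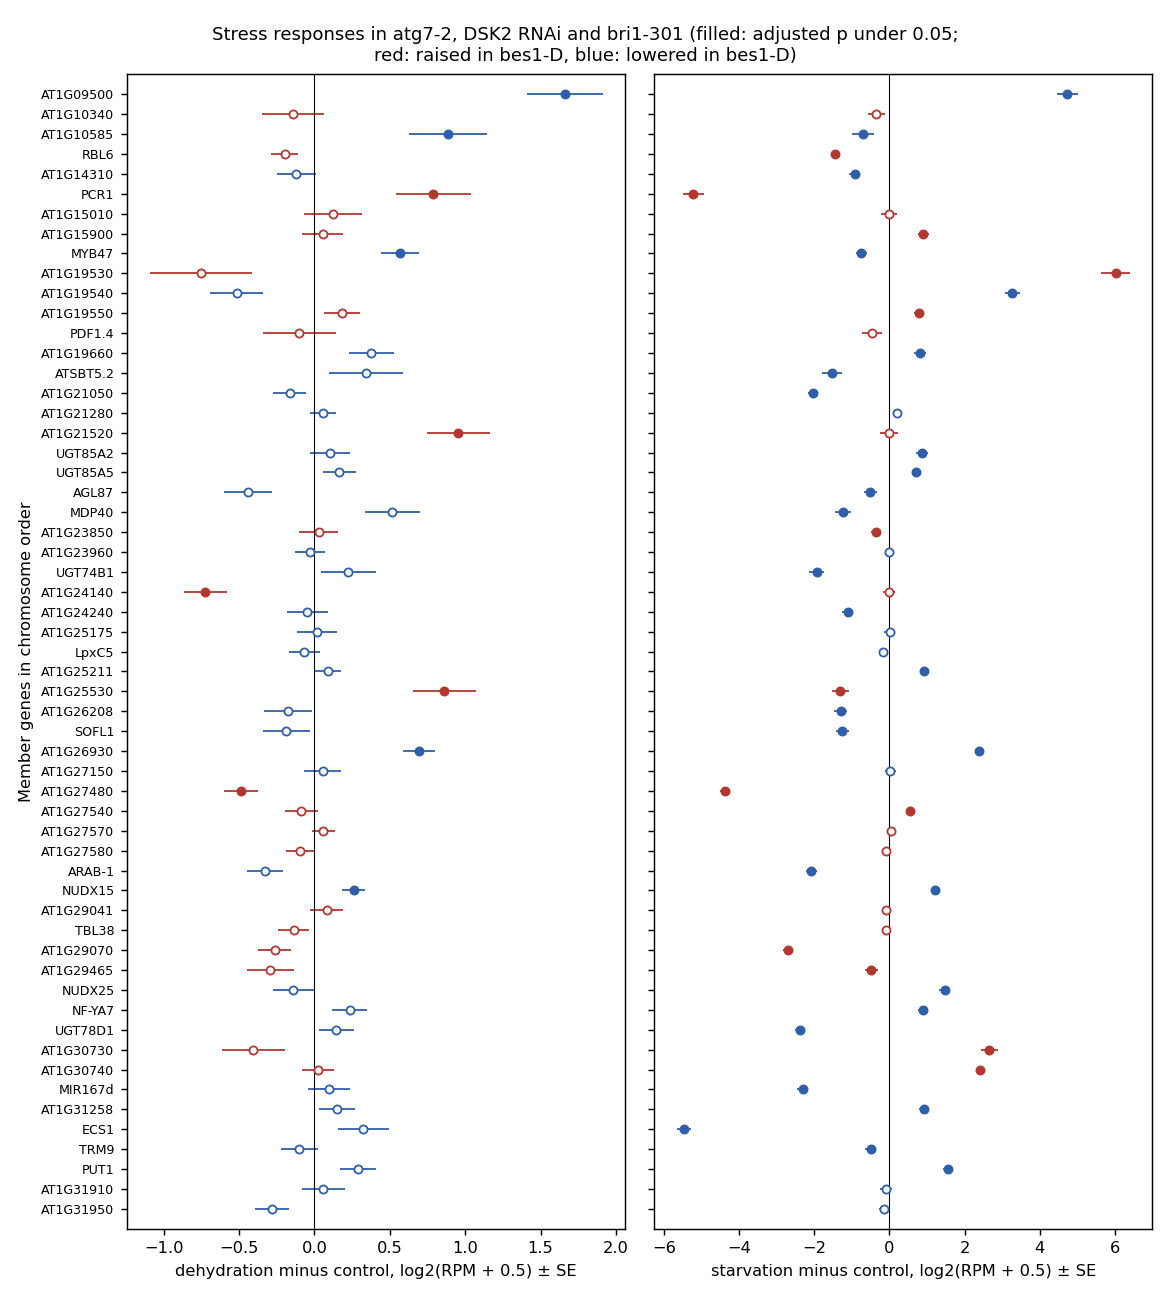
Change with dehydration (left) and starvation (right) against control in the mean of bri1-301, atg7-2 and DSK2 RNAi, in log2(RPM + 0.5) with SE, for the 57 genes in chromosome order. Filled symbols passed at adjusted p under 0.05 (10 with dehydration, 41 with starvation), and red and blue mark genes raised and lowered in bes1-D.

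The brassinosteroid receptor mutant was then set against the other 2 mutants. In control leaves 5 of the 57 genes differed between bri1-301 and the mean of atg7-2 and DSK2 RNAi, beside 1.15% of all genes (0.656% higher and 0.489% lower). MIR167d was higher in bri1-301 by 1.13 (SE 0.21, adjusted p = 0.00143), with 12.7, 14.0 and 14.1 RPM in bri1-301, against 6.84, 5.10 and 5.58 RPM in atg7-2 and 5.96, 5.90 and 6.32 RPM in DSK2 RNAi. The 3 bri1-301 libraries lay above all 6 others. MYB47 (0.83), AT1G21050 (0.81) and NUDX25 (0.80) were higher too, and TBL38 was lower than the mean of both (-0.59, SE 0.15, adjusted p = 0.0476). TBL38 had 19.5, 17.0 and 20.8 RPM in bri1-301, against 42.1, 41.7 and 37.9 RPM in atg7-2 and 21.3, 19.8 and 20.6 RPM in DSK2 RNAi, so bri1-301 overlapped DSK2 RNAi and lay below atg7-2 alone. With edgeR, DESeq2 or scaling by the median of ratios 1 call was made in place of 5, and the scaling moved the calls over all genes to 91 higher and 102 lower, in place of 130 and 97.

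In dehydrated leaves 3 genes differed between bri1-301 and the other 2 mutants (2.2% of all genes, 0.908% higher and 1.3% lower): MIR167d was higher by 0.77, and PCR1 (-1.35) and TBL38 (-0.60) were lower. PCR1 had 44.9, 79.8 and 58.6 RPM in bri1-301, against 299, 270 and 157 RPM in atg7-2 and 64.1, 106 and 145 RPM in DSK2 RNAi, so bri1-301 overlapped DSK2 RNAi. With edgeR or scaling by the median of ratios 0 of the 57 genes were called, and 13 and 14 had an unadjusted p under 0.05. In starved leaves 27 differed, 22 higher and 5 lower in bri1-301, beside 43.4% of all genes (31.6% and 11.8%), and scaling by the median of ratios gave 14 higher and 7 lower, with 4135 and 4143 in all in place of 6264 and 2332. The median of all genes was 0.27 as deposited and 0.04 with that scaling. MIR167d was higher by 2.67 (SE 0.25, adjusted p = 1.75e-09), with 5.23 and 5.28 RPM in bri1-301, against 0.170 and 0.0683 RPM in atg7-2 and 0.877 and 0.771 RPM in DSK2 RNAi. AT1G21050 was higher by 2.40 and AT1G25175 by 1.90. AT1G10340 (-2.47, SE 0.38, adjusted p = 6.74e-06), AT1G30740 (-1.69) and AT1G30730 (-1.40) were lower. The 2 starved bri1-301 libraries were the least alike of all pairs of replicates, as given further below.

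The starvation response itself differed between bri1-301 and the other 2 mutants for 17 of the 57 genes, 12 more positive and 5 more negative in bri1-301, beside 25.5% of all genes (17.8% and 7.72%). With scaling by the median of ratios it was 9 and 5, the split over all genes was 2274 and 2607 in place of 3527 and 1531, and the median of all genes was 0.05 in place of 0.19. No gene of the 57 and none of all 19824 passed for the dehydration response with limma, edgeR or DESeq2, and at unadjusted p under 0.05 limma gave 2 of the 57 and 423 in all, edgeR 3 and 396, and DESeq2 2 and 448.

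Finally atg7-2 was compared with DSK2 RNAi, a pair of lines that share neither mutation. In control leaves 9 of the 57 genes differed, 7 higher and 2 lower in atg7-2, beside 7.15% of all genes (3.81% and 3.34%), and scaling by the median of ratios gave 8 higher and 0 lower. AT1G09500 was higher by 2.88 (SE 0.44, adjusted p = 8.63e-05), with 37.4, 36.7 and 35.6 RPM in atg7-2, against 4.63, 1.75 and 10.6 RPM in DSK2 RNAi, AT1G21520 by 1.40 and PUT1 by 1.34. AT1G27480 (-0.66) and RBL6 (-0.53) were lower. In dehydrated leaves 10 differed (11% of all genes, 4.31% higher and 6.71% lower), 7 higher and 3 lower, and scaling by the median of ratios gave 10 and 2 (1413 and 814 in all, in place of 855 and 1330). AT1G09500 (1.87), AT1G30730 (1.59) and ECS1 (1.39) were higher in atg7-2, and MYB47 (-1.24), RBL6 (-0.86) and MIR167d (-0.82) were lower. In starved leaves 22 differed (34.3% of all genes, 6.74% higher and 27.6% lower), 3 higher and 19 lower, and scaling by the median of ratios gave 7 higher and 10 lower (3346 and 2359 in all, in place of 1336 and 5465). The median of all genes was -0.18 in dehydration and -0.35 in starvation as deposited, and within 0.05 of 0 with that scaling. MDP40 (1.10), AT1G19660 (1.00) and AT1G30740 (0.74) were higher in starved atg7-2, and PCR1 (-2.89), PDF1.4 (-2.74) and AT1G21050 (-2.72) were lower. AT1G25175, nearly silent in bes1-D, had 7.86 and 6.25 RPM in starved atg7-2, against 28.2 and 39.0 RPM in starved DSK2 RNAi.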

How the data were processed

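RNA-seq libraries of total leaf RNA (single reads of 50 bases, per the labels) were analysed. For each library the authors deposited 1 scaled signal value per gene, called RPM in the file headers. Columns sum to 985308 to 1023136, so the values are scaled by library but not to one fixed total. The submitters' processing notes name GSNAP, DESeq2 and TAIR10, without versions. Handling of strand and of reads that match several genes was not given in the sources used here. Per the authors, the same deposited table also marks genes as changed or not between bes1-D and WT. The labels list 64 libraries, of which 24 of wrky genotypes were not analysed here. Of 33366 lines, 4591 without a gene identifier were left out.

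With a tolerance of 0.01 reads, 100.0% of values were whole multiples of 1 read. Genes with at least 1 RPM in 2 libraries were kept, and log2(RPM + 0.5) was fitted by group over all 40 libraries with limma 3.58.1 (trend, 25 residual degrees of freedom, two-sided, Benjamini-Hochberg adjustment over 19824 genes, calls at 0.05). On the recovered reads edgeR 4.0.16 called 15808 genes for starvation and 2603 for dehydration, beside 15305 and 2403 with limma. DESeq2 1.42.0, other pseudocounts, filters, scaling and left-out libraries were alternatives. The fit was also run on simulated counts in which few genes changed. Starvation changed most genes, so that run says little about the starvation calls. Positions and sequences were looked up by locus tag in RefSeq's TAIR10.1, in which all 57 genes matched. The files hold no coordinates.

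Genes are named by a rule: the 12 raised and 12 lowered with the largest smallest difference, the 5 nearest BES1 on each side, those next to the limit, adjacent ones, those with a symbol, and the leading calls of each test. Other members are named by role and were chosen after their values were seen. The members, lists and tests were chosen with earlier results of these data known.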

Additional observations from a re-analysis of the deposited data

Results flagged for a closer look

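One set of results was picked out because the response of 1 line to starvation differed from that of 2 others by a test of the difference itself. Of the 57 genes 17 passed this test for bri1-301 against the mean of atg7-2 and DSK2 RNAi (limma adjusted p under 0.05), beside 25.5% of all genes, so the share of 29.8% is near that of all genes. The most positive differences in response were those of AT1G29465 (1.75, SE 0.37), AT1G25175 (1.64, SE 0.32) and AT1G21050 (1.59, SE 0.26) on the log2(RPM + 0.5) scale. For AT1G21050 the change with starvation was -0.98 in bri1-301, -4.12 in atg7-2 and -1.03 in DSK2 RNAi, so bri1-301 was close to DSK2 RNAi and far from atg7-2. For the other 5 genes named here the change in bri1-301 lay outside the changes in both other lines. The most negative were those of AT1G10340 (-2.30, SE 0.49), AT1G30730 (-2.0, SE 0.50) and AT1G30740 (-1.69, SE 0.25). AT1G10340 had 5.50 and 15.7 RPM in starved bri1-301, against 50.1 and 50.0 RPM in starved atg7-2 and 51.3 and 66.6 RPM in starved DSK2 RNAi. The 2 starved bri1-301 libraries differed more than any other pair of replicates, with a chi-square of their read counts of 287 per degree of freedom. The starved groups of the other lines had 17.8 to 150. In starved bri1-301 the slopes of expression on transcript length were -0.136 and 0.739. All groups share 1 estimate of the spread, so the SEs reflect this only in part. Groups of 2 or 3 libraries are too small for a search for single outlying libraries.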

How the results depend on the processing

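The conditions on bes1-D minus WT gave 48 to 80 genes under other pseudocounts, filters and scaling, and 51 to 60 when each of the 16 bes1-D and WT libraries was left out in turn. With edgeR's fitted changes they gave 99 genes (53 of the 57), with 5.91% of the interval and 3.02% of all other genes. Without single libraries these shares were 3.09% to 3.60% and 1.46% to 2.02%. For bri1-301 against the mean of atg7-2 and DSK2 RNAi in control, the 5 calls became 3 with a filter of 5 RPM, 1 with scaling by the median of ratios, edgeR or DESeq2, and 1 to 4 without single libraries (1 without bri1-301 1, 2 without bri1-301 2, and 3 without bri1-301 3, any atg7-2 library or DSK2 RNAi 1 or 2). In dehydration the 3 calls became 1 with a pseudocount of 0.1, without a filter or with DESeq2, 0 with that scaling or edgeR, and 0 to 2 without single libraries (0 without any bri1-301 library or atg7-2 1 or 2, and 1 without DSK2 RNAi 2 or 3). For atg7-2 minus DSK2 RNAi, leaving out single libraries gave 3 to 8 calls in control in place of 9 (3 without atg7-2 3 or DSK2 RNAi 1, 4 without atg7-2 2), 5 to 16 in dehydration in place of 10 (16 without atg7-2 3, 5 without atg7-2 1 or 2, 6 without DSK2 RNAi 3) and 13 to 18 in starvation in place of 22 (13 without atg7-2 2, 14 without DSK2 RNAi 2). The calls of the mean responses were 7 to 12 for dehydration and 39 to 42 for starvation, 13 to 22 for the difference in starvation response, and 22 to 27 for bri1-301 in starvation. For the genes named in tests, 920 recomputed values kept direction and call, 112 kept direction without passing and none reversed. Leaving 1 starvation library in a group assumes that it varies like the other groups. The labels do not say that a replicate number marks shared plants or days. Same-numbered libraries deviated together by a correlation over 0.1 in 62 of 115 pairs (range -0.55 to 0.81), and all 3 numbers did so in 6 of 25 pairs of groups. Those included bes1-D with WT in dehydration (0.56, 0.56 and 0.81) but not in control (0.03, -0.03 and 0.01), and a block cannot move the bes1-D minus WT means, which use equal numbers of each replicate. For the tests the replicate block gave 41 calls for starvation, 10 for dehydration and 2 for bri1-301 in dehydration. With only the libraries of the 3 mutants fitted, starvation gave 41 calls and dehydration 13 in place of 10. For atg7-2 minus DSK2 RNAi that fit gave 11 calls in place of 9 in control and 15 in place of 10 in dehydration. The floor of 3 reads limits values under about 0.1 RPM, and the cause of these shifts was not tested.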
